A study of Mus musculus with 6 samples.

Results

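Nitric oxide signalling was followed through 5 genes of the 27998 in the deposited count table: the nitric oxide synthases Nos1 and Nos3 and the soluble guanylate cyclase subunits Gucy1a2, Gucy1a3 and Gucy1b3. The genes were taken by symbol and no rule on their values was applied, but they were chosen with earlier results of these data known. All 5 were found, each on a single line of the table. Their raw transcript counts, read as unique molecular identifiers (UMIs, a tag that marks each captured RNA molecule), were described in the neurons, mural cells and endothelial cells of the mouse preoptic region. Levels are UMIs per 1000000 UMIs of the same cells (CPM). Differences in capture between genes are unknown, so a level was compared between cells for the same gene and not between genes.

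Nitric oxide is a gas made from arginine. Nos1, the neuronal synthase, is tied to NMDA-type glutamate receptors at synapses, and Nos3, the endothelial synthase, lines blood vessels. The gas diffuses into neighbouring cells and binds the haem of soluble guanylate cyclase, a dimer of an alpha subunit (Gucy1a3 or Gucy1a2) and the beta subunit Gucy1b3, which then makes cyclic GMP (cGMP). In vascular smooth muscle cGMP activates the kinase Prkg1 and relaxes the vessel. In the preoptic region Nos1 neurons are known for their part in the control of reproduction, sleep and body temperature.

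The study profiled single cells of the preoptic region, a part of the hypothalamus, by droplet RNA sequencing on the 10x Chromium platform. There were 3 female and 3 male libraries, each pooled from 3 mice, 60 to 70 days old, that were kept singly over the last 3 days. Tissue was dissociated with protease and live cells were sorted. All mice went through the same procedure, no strain, genotype or treatment contrast is labelled, and a library averages over its pool, so the spread given is between libraries and not between mice.

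Deposited UMIs per library ran from 1278429 to 81162330, and 29822 cells were kept after filters and doublet removal, from 406 cells in female replicate 3 to 9365 in female replicate 2. Of 30351 distinct barcode sequences, 468 occurred in at least 2 libraries, and these were treated as different cells. Cells were grouped without the 5 genes and without the other genes of the pathway, and groups were named from marker genes, so each name below stands for cells that look like that type ("mural-like", "endothelial-like" and so on). These were 18238 neurons, among them 2787 excitatory, 9948 inhibitory and 3670 striatal projection neurons, and 420 mural and 369 endothelial cells. Of the markers, Acta2 stood at 13533.6 CPM in mural cells and 29.9 CPM in endothelial cells, and Cldn5 at 18.5 CPM in mural cells and 3836.8 CPM in endothelial cells. Of the mural cells 402 were smooth muscle and 18 were pericytes, with Acta2 at 0 and Kcnj8 at 1945.3 CPM in the pericytes. A further 127 vascular cells held markers of more than 1 type and were set aside. Female replicate 3 gave 5 mural cells and 5 excitatory neurons and was left out of the comparisons of those classes. Free RNA in droplets was gauged from mature oligodendrocytes, which should lack neuronal transcripts: 36.0% of them held a UMI of the synaptic gene Snap25, at 89.8 CPM, beside 103.8 CPM in mural cells and 95.5 CPM in endothelial cells. The summed level of 12 neuronal markers was 227.6 to 813.6 CPM over the mural libraries, 48.8 to 825.1 CPM over the endothelial libraries and 6305.8 to 6927.8 CPM over the neuronal ones.

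The genes for the usual alpha and beta subunits lie side by side. In the GENCODE vM21 annotation of GRCm38 (the mm10 build), Gucy1a3, now named Gucy1a1, spans chr3:82092427-82145789 on the minus strand and Gucy1b3, now Gucy1b1, spans chr3:82032006-82074689 on the same strand, with a gap of 17737 bases between them. Gucy1a2 lies alone at chr9:3532778-3894736 on the plus strand, and the synthases lie at chr5:117781032-117958840 (Nos1, plus strand) and chr5:24364810-24384474 (Nos3, plus strand). The 250 bases before a RefSeq start of each subunit gene are given for comparison: all 3 genes were highest in mural cells, and the neighbours Gucy1a3 and Gucy1b3 were also high in striatal projection neurons, while Gucy1a2 was flat across neurons. Gucy1a3 has 2 RefSeq starts, and the window of the first is given. They are read on the gene's own strand from RefSeq on GRCm38.p6. Capitals mark letters searched for on both strands: the CCAAT box (CCAAT, or ATTGG), the GC box (GGGCGG), the core of the cAMP response element (TGACG, or CGTCA) and the CArG box.
Gucy1a3, chr3:82145651-82145900, minus strand: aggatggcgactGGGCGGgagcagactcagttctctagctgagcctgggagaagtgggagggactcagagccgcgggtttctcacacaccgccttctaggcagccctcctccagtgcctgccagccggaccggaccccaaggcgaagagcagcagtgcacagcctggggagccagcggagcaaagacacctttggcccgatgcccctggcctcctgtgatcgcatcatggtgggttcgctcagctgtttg
Gucy1b3, chr3:82074712-82074961, minus strand: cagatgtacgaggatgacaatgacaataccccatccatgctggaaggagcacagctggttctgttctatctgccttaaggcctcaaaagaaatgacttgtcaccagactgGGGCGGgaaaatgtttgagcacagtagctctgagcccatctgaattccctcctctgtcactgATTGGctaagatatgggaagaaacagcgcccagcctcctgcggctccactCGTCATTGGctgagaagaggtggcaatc
Gucy1a2, chr9:3532099-3532348, plus strand: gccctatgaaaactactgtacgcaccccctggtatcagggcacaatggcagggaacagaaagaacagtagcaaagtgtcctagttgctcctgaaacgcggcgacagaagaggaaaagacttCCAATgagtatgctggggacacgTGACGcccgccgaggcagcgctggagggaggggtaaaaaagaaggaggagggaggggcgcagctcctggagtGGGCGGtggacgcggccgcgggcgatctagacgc
All 3 windows printed held a GC box, which 32.7% of 32851 RefSeq promoter windows of the same length hold. Gucy1b3 and Gucy1a2 also held the CCAAT box (33.8% of all windows) and the element's core (17.8%), and in Gucy1b3 both run together in CGTCATTGG, 28 bases before the start, where they share letters. No CArG box (1.47% of all windows), a motif of many smooth muscle promoters, was found in the 3 windows. The window of the other Gucy1a3 start (chr3:82145074-82145323) held none of these motifs. These matches describe the letters only.

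Nos3 was an endothelial transcript by level. Endothelial cells had 128.1, 80.6 and 48.8 CPM in female replicates 1 to 3 and 65.3, 117.8 and 119.9 CPM in male replicates 1 to 3, against 8.34, 8.12, 6.98, 6.35, 7.09 and 6.94 CPM in the neurons of the same libraries. The lowest endothelial library was above every neuronal library, in a comparison where 72.9% of all genes tested were called (below). A Nos3 UMI was held by 26.8% of endothelial cells, 5.63% of neurons and 1.01% of mature oligodendrocytes, at medians of 3301, 7050 and 4836 UMIs per cell, and with every cell thinned to 2000 UMIs the shares were 19.2%, 1.31% and 0.274%. In all mural cells 3 Nos3 UMIs were counted, a pooled 2.13 CPM with an exact Poisson 95% interval of 0.440 to 6.23 CPM, which covers counting error only, as all such intervals here do. Mature oligodendrocytes were at 1.84 CPM, so the mural level was not above background. Capillary and arterial endothelial cells stood alike, at a pooled 99.3 and 99.1 CPM over 290 and 79 cells, with library means of 92.4 ± 35.8 CPM (SD, n = 6) and 111.0 ± 82.8 CPM (SD, n = 3).

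Because neurons outnumbered endothelial cells, 78.4% of the Nos3 UMIs of all cells came from neurons and 9.61% from endothelial cells. Excitatory neurons averaged 8.64 ± 2.58 CPM (SD, n = 5) and inhibitory neurons 7.96 ± 3.09 CPM (SD, n = 6). The 3′ end of Nos3 overlaps that of Atg9b, an autophagy gene on the opposite strand at chr5:24384181-24392143, by 294 bases. Atg9b averaged 29.0 ± 5.42 CPM in neurons (SD, n = 6) and was at a pooled 8.21 CPM in endothelial and 2.13 CPM in mural cells. Whether counting used the strand was not given in the sources used here. A neuronal Nos3 count cannot be told apart from Atg9b, and the part of Atg9b in it was not tested.

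Nos1 was a neuronal transcript, with 96.5% of its 5078 UMIs in neurons, and it was highest in excitatory neurons. Excitatory neurons had 59.9 and 71.7 CPM in female replicates 1 and 2 and 78.7, 67.1 and 46.4 CPM in male replicates 1 to 3, against 26.3, 35.1, 33.3, 33.9 and 29.6 CPM in the inhibitory neurons of the same libraries. The groups did not overlap, in a comparison where 22.0% of all genes tested were called (below). Female replicate 3 had no Nos1 UMI in its 45 inhibitory neurons, which allows a level of up to 14.02 CPM at a floor of 3 counts. A Nos1 UMI was held by 31.4% of excitatory neurons, 15.5% of inhibitory neurons and 0.916% of mature oligodendrocytes, and after thinning by 13.4%, 5.90% and 0.411%. Striatal projection neurons averaged 4.40 ± 2.43 CPM (SD, n = 6), the lowest of the named neuronal classes. Mural cells held 4 Nos1 UMIs and endothelial cells 7, at a pooled 2.84 and 5.22 CPM, with counting intervals of 0.775 to 7.28 and 2.10 to 10.8 CPM, which both reach the 1.87 CPM of mature oligodendrocytes or lie just above it. The 127 set-aside vascular cells of mixed markers stood at 15.4 CPM, together with 549.3 CPM of Snap25.

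The cyclase subunits were highest in mural cells and close to background in endothelial cells. Gucy1b3, the beta subunit that every active dimer needs, was at 619.7 and 399.8 CPM in the mural cells of female replicates 1 and 2 and at 638.2, 515.5 and 749.8 CPM in male replicates 1 to 3. Endothelial cells had 8.84, 19.0 and 0 CPM in female replicates 1 to 3 and 5.94, 15.4 and 21.8 CPM in male replicates 1 to 3, and neurons had 165.6, 138.6 and 204.6 CPM in females and 164.1, 151.9 and 173.4 CPM in males. Every mural library was above every neuronal one, and every neuronal one above every endothelial one. Such differences are common between these classes. Of all genes tested, 59.8% were called between mural cells and neurons and 72.9% between endothelial cells and neurons (below). A Gucy1b3 UMI was held by 74.0% of mural cells, 4.07% of endothelial cells and 57.0% of neurons, beside 8.09% of mature oligodendrocytes.

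Gucy1a3, the alpha subunit of the main vascular cyclase, was at 528.4 and 450.9 CPM in the mural cells of female replicates 1 and 2 and at 373.3, 412.9 and 281.2 CPM in male replicates 1 to 3. In endothelial cells it was at 0, 7.11 and 0 CPM in females and 17.8, 15.4 and 0 CPM in males, and in neurons at 91.0, 81.5 and 97.7 CPM in females and 89.4, 112.2 and 67.1 CPM in males. The order of the classes was the same as for Gucy1b3. The pooled endothelial levels of Gucy1a3 and Gucy1b3, 8.96 and 14.2 CPM, lay beside 8.73 and 15.8 CPM in mature oligodendrocytes. Per 1000 Snap25 UMIs the endothelial cells held 93.8 Gucy1a3 and 148 Gucy1b3 UMIs, mature oligodendrocytes 97.2 and 176, and neurons 68.0 and 115, while mural cells held 4103 and 5151.

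Gucy1a2, the other alpha subunit, is known from brain synapses. Mural cells had 33.6 and 23.2 CPM in female replicates 1 and 2 and 47.9, 37.8 and 93.7 CPM in male replicates 1 to 3. Neurons had 13.4, 13.6 and 13.95 CPM in females and 15.1, 14.1 and 7.74 CPM in males. All were below the lowest mural library, in a comparison where 59.8% of all genes tested were called. The highest mural value came from the 34 mural cells of male replicate 3. Endothelial cells held 4 UMIs, at a pooled 2.99 CPM (counting interval 0.813 to 7.64 CPM) beside 0.935 CPM in mature oligodendrocytes.

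**Figure D1:**
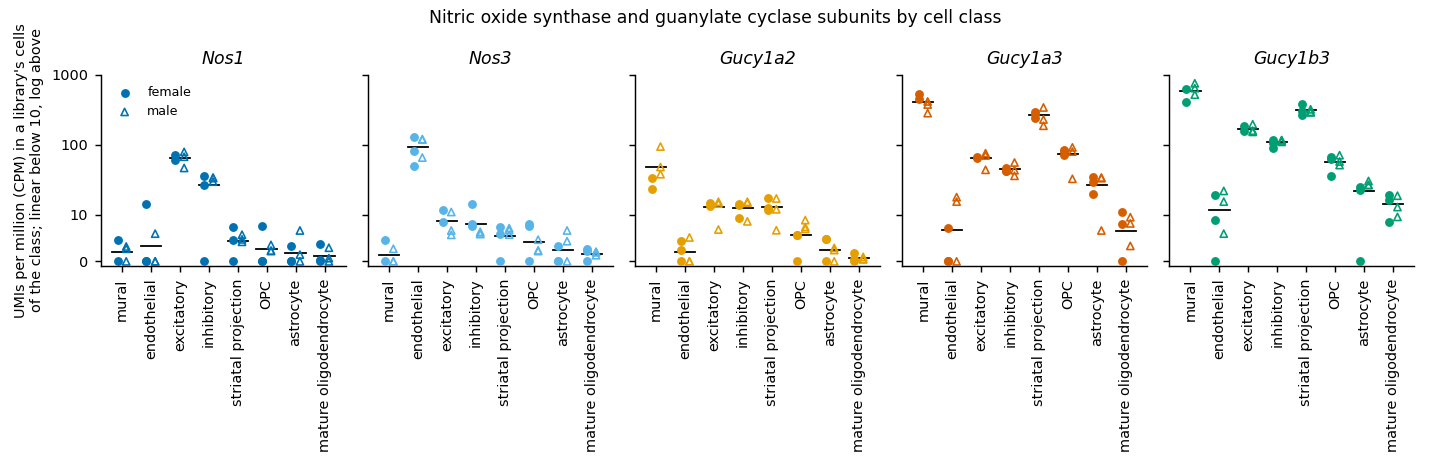
Level of each of the 5 genes in 8 cell classes, in CPM (the axis is linear below 10 and logarithmic above). Filled circles are female libraries, open triangles male libraries, and lines the means. Nos3 points are high in endothelial cells, Nos1 points in excitatory and inhibitory neurons, and Gucy1a3 and Gucy1b3 points in mural cells and striatal projection neurons. OPC stands for oligodendrocyte precursor cells.

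Class differences were tested on UMI sums per library with the library as a block, using edgeR's quasi-likelihood test and Benjamini-Hochberg adjustment over all genes tested, with a threshold of 0.05 on the adjusted p for a call. Log2 folds have the named class over the second. Between mural and endothelial cells (5 libraries) 50.0% of 4316 genes were called, 23.6% higher in mural cells and 26.3% lower. Gucy1a3 was higher in mural cells by 5.58 (SE 0.26, adjusted p = 5.48e-20) and Gucy1b3 by 5.24 (SE 0.22, adjusted p = 3.06e-21), while Nos3 was lower by a log2 fold of -5.12 (SE 0.45, adjusted p = 3.3e-12). All 5 libraries had the same direction for these 3 genes. Each gene passed the filter on low counts through the class where it is high, which fixed its direction. Mural and endothelial UMIs were 595 and 12 for Gucy1a3, 748 and 19 for Gucy1b3, and 3 and 131 for Nos3. With the 127 set-aside vascular cells kept, most of them in the endothelial class, the folds of Gucy1a3 and Gucy1b3 were 4.004 and 3.64, and after thinning that of Gucy1a3 was 4.89. Nos1 and Gucy1a2 had too few counts to be tested, with 4 mural and 7 endothelial UMIs of Nos1, and 53 mural and 4 endothelial UMIs of Gucy1a2.

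Between mural cells and neurons (5 libraries) 59.8% of 11799 genes were called, 24.9% higher in mural cells and 34.9% lower. Of the calls 41.7% were higher, a share that was 27.1% with total UMIs as library size and 35.2% with DESeq2. These scalings moved the median of all genes by -0.41 and -0.23 on the log2 scale. All 3 subunits were higher in mural cells under each scaling: Gucy1a3 by a log2 fold of 2.61 (SE 0.16, adjusted p = 2.35e-60), Gucy1b3 by 2.21 (SE 0.15, adjusted p = 1.51e-45) and Gucy1a2 by 1.94 (SE 0.29, adjusted p = 5.26e-11). The neurons here are a mixture of classes, and 6600 of their 12895 Gucy1a3 UMIs came from striatal projection neurons. Pooled Gucy1a3 was at 277.0 CPM in those, 66.7 CPM in excitatory and 46.4 CPM in inhibitory neurons. Nos1 was lower in mural cells, at -3.13 (SE 0.53, adjusted p = 1.71e-08). Nos3 did not pass, at -1.38 (SE 0.77, adjusted p = 0.112), and it passed under 4 of the alternatives, among them total UMIs as library size (-1.80, adjusted p = 0.022) and the fit without female replicate 2 (-2.60, adjusted p = 0.0375). Over its 12 alternatives the fold ran from -2.60 to -1.09, with an adjusted p of up to 0.259. Those mural counts rest on 3 Nos3 UMIs. Nos1 and Nos3 passed the filter on low counts through the neurons, which fixed their direction.

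Between endothelial cells and neurons (6 libraries) 72.9% of 6947 genes were called, 34.9% higher in endothelial cells and 38.0% lower. Of the calls 47.9% were higher, against 33.8% with total UMIs and 35.4% with DESeq2, which moved the median of all genes by -0.41 and -0.37. Nos3 was higher in endothelial cells by 4.13 (SE 0.22, adjusted p = 2.19e-24). Gucy1a3 was lower by a log2 fold of -2.97 (SE 0.32, adjusted p = 4.17e-12) and Gucy1b3 by -3.05 (SE 0.25, adjusted p = 2.82e-16), with the same directions under each scaling. With the set-aside vascular cells kept these folds were -1.42 (adjusted p = 0.00053) and -1.46 (adjusted p = 0.000146). Here too each of the 3 genes passed the filter through the class where it is high, which fixed its direction. Endothelial cells held 12 Gucy1a3 and 19 Gucy1b3 UMIs. The 2 comparisons with neurons share the neuronal samples and their mixture of neuronal classes.

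**Figure D2:**
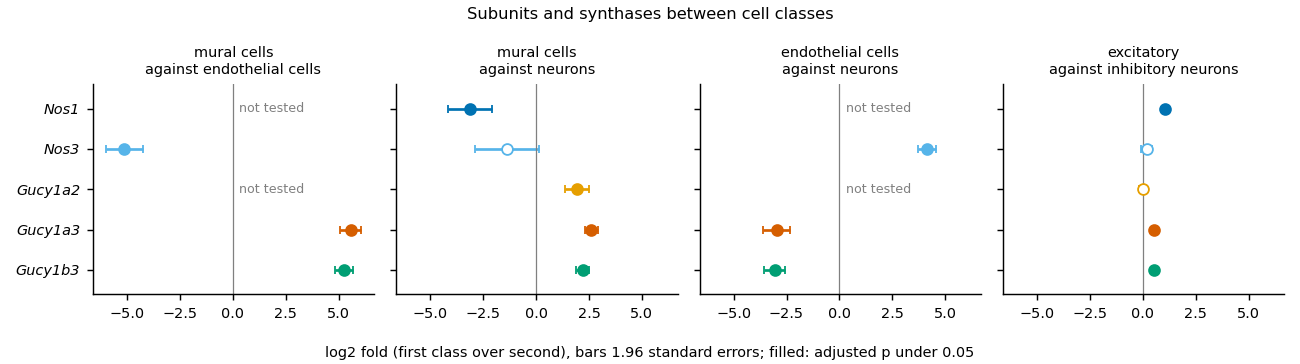
Log2 fold of the 5 genes between cell classes, named class over the second, from the edgeR fits over 5 or 6 libraries, with bars of 1.96 standard errors on each side and filled symbols at an adjusted p under 0.05. Gucy1a3 and Gucy1b3 lie right of 0 for mural cells against both other classes and left of 0 for endothelial cells against neurons, with Nos3 the other way round between mural and endothelial cells. Genes with too few counts are marked as not tested.

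The named classes with at least 5 libraries were then put in order of their mean Gucy1b3 level. Mural cells averaged 584.6 ± 132.6 CPM (SD, n = 5), striatal projection neurons 308.3 ± 40.0 CPM (n = 6) and excitatory neurons 169.3 ± 19.5 CPM (n = 5). Inhibitory neurons averaged 108.8 ± 10.7 CPM (n = 6) and oligodendrocyte precursors 57.1 ± 12.6 CPM (n = 6). The libraries of neighbours in this order did not overlap, a description of this gene only. Of these pairs only excitatory against inhibitory neurons has a share over all genes, with 22.0% called. Newly formed oligodendrocytes (43.8 ± 16.04 CPM, n = 5), astrocytes (21.8 ± 10.95 CPM, n = 6), mature oligodendrocytes (14.1 ± 4.52 CPM, n = 6), endothelial cells (11.8 ± 8.33 CPM, n = 6) and microglia (9.29 ± 5.97 CPM, n = 5) followed, and from the precursors down each range overlapped with the next. Gucy1a3 ran from mural cells (409.4 ± 91.7 CPM, n = 5) and striatal projection neurons (261.4 ± 54.0 CPM, n = 6), whose libraries overlapped, to oligodendrocyte precursors (72.9 ± 20.9 CPM, n = 6) and excitatory neurons (63.9 ± 12.1 CPM, n = 5), which overlapped too, and then to inhibitory neurons (44.2 ± 6.595 CPM, n = 6), whose range overlapped with that of excitatory neurons. Gucy1a2 was flat across the named neuronal classes, at 12.9 ± 3.50 CPM in excitatory (n = 5), 12.8 ± 3.97 CPM in striatal projection (n = 6) and 12.6 ± 2.92 CPM in inhibitory neurons (n = 6).

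Pericytes, which wrap capillaries, were few. Their 18 cells held 32 Gucy1b3 UMIs (841.2 CPM, counting interval 575.4 to 1187.6 CPM), 10 Gucy1a3 UMIs (262.9 CPM), 4 Gucy1a2 UMIs (105.2 CPM) and no Nos3 UMI. No 2 libraries had enough pericytes to test them against smooth muscle, where the pooled levels were 526.0 CPM for Gucy1b3 and 430.3 CPM for Gucy1a3. Among the smooth muscle subclusters the library mean ran from 249.5 to 831.2 CPM for Gucy1b3 and from 135.6 to 564.6 CPM for Gucy1a3.

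A working cyclase needs both kinds of subunit, and detection in the same cell was read next. Among mural cells with a Gucy1b3 UMI, 231 of 311 (74.3%) also held a UMI of an alpha subunit, and this share was 69.6% in striatal projection neurons, 48.3% in excitatory neurons and 39.7% in inhibitory neurons. In endothelial cells it was 2 of 15 cells, and in mature oligodendrocytes 8.72%. Among all cells of a class, with or without Gucy1b3, an alpha UMI was held by 70.5% of mural cells, 60.7% of striatal projection, 41.3% of excitatory and 31.5% of inhibitory neurons, 3.52% of endothelial cells and 4.74% of mature oligodendrocytes. These shares move with the level of the alpha genes and with the depth of the cells, at a median of 3343 UMIs in mural cells and 7610 and 7073.5 UMIs in excitatory and inhibitory neurons.

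The share of Gucy1a2 among the UMIs of both alpha subunits was compared between classes within each library, and not read as a ratio of proteins. Mural cells had shares of 5.98%, 4.90%, 11.4%, 8.38% and 25% in female replicates 1 and 2 and male replicates 1 to 3, against 12.8%, 14.3%, 14.5%, 11.1% and 10.3% in neurons. The mean difference of -1.50 percentage points was smaller than its spread between libraries (SD 9.44, exact sign-flip test, two-sided p = 0.75, Benjamini-Hochberg adjusted p = 0.75, n = 5 libraries). It was -5.54 points without male replicate 3 and 0.49 without female replicate 2. Excitatory neurons had shares of 16.5%, 18.9%, 17.1%, 16.9% and 13.5%, against 25.6%, 22.4%, 25.6%, 21.6% and 19.3% in inhibitory neurons, lower in 5 of 5 libraries. That difference, -6.31 points, had a two-sided exact p = 0.0625, the smallest that 5 libraries allow (adjusted p = 0.125 over the pairs tested). After thinning it was -3.51 points over 4 libraries, 1 of them the other way (exact p = 0.375, adjusted p = 0.75). The third pair, endothelial cells against neurons, had no library with 10 alpha subunit UMIs in endothelial cells and was not run.

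Excitatory neurons were then set against inhibitory neurons. Of 13138 genes 22.0% were called (5 libraries), 10.9% higher in excitatory neurons and 11.1% lower. Of the calls 49.4% were higher, and 61.3% with total UMIs as library size. Nos1 averaged 64.8 ± 12.3 CPM in excitatory neurons and 31.6 ± 3.62 CPM in inhibitory neurons (SD, n = 5 each), a log2 fold of 1.06 (SE 0.06, adjusted p = 2.42e-15). Gucy1a3 and Gucy1b3 were higher by 0.51 (SE 0.05, adjusted p = 1.08e-08) and 0.52 (SE 0.04, adjusted p = 3.14e-12), in the same direction under each scaling. Nos3 (0.18, adjusted p = 0.379) and Gucy1a2 (-0.01, adjusted p = 1) did not pass.

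Within these classes the level varied between subclusters. Nos1 was highest in an excitatory subcluster led by Tcf7l2 and Adamts2 (1028 cells), at 143.3 ± 15.2 CPM over libraries, with a lowest library of 120.9 CPM. Then came an unnamed subcluster led by Nmu and Lhx8 (66.8 ± 8.81 CPM) and 4 inhibitory ones, led by Npy and Sst (66.0 ± 31.97 CPM, 555 cells), Esrrg (64.3 ± 14.1 CPM), Greb1 (62.3 ± 13.5 CPM) and Gbx1 (59.9 ± 18.5 CPM), which did not differ beyond their spread. The lowest level was 1.35 ± 1.17 CPM, in striatal projection neurons led by Tac1 and Pdyn.

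The cyclase subunits were ordered otherwise across subclusters. Gucy1a3 was highest in striatal projection neurons led by Adora2a and Penk (776 cells), at 464.5 ± 118.8 CPM, and stood between 180.2 and 271.3 CPM in the other 4 striatal subclusters. It was lowest in inhibitory neurons led by Avp, Nms and Vipr2 (1059 cells), at 10.4 ± 6.95 CPM, where Gucy1b3 was lowest too, at 72.2 ± 10.6 CPM. Gucy1b3 was at 397.5 ± 35.3 CPM in the Adora2a and Penk neurons and at 404.6 ± 77.6 CPM in excitatory neurons led by Sln and Ctxn3 (136 cells, 3 libraries). In these Sln neurons Gucy1a3 was at 25.4 ± 18.6 CPM, Gucy1a2 at 19.5 ± 13.3 CPM and Nos1 at 3.50 ± 3.67 CPM.

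**Figure D3:**
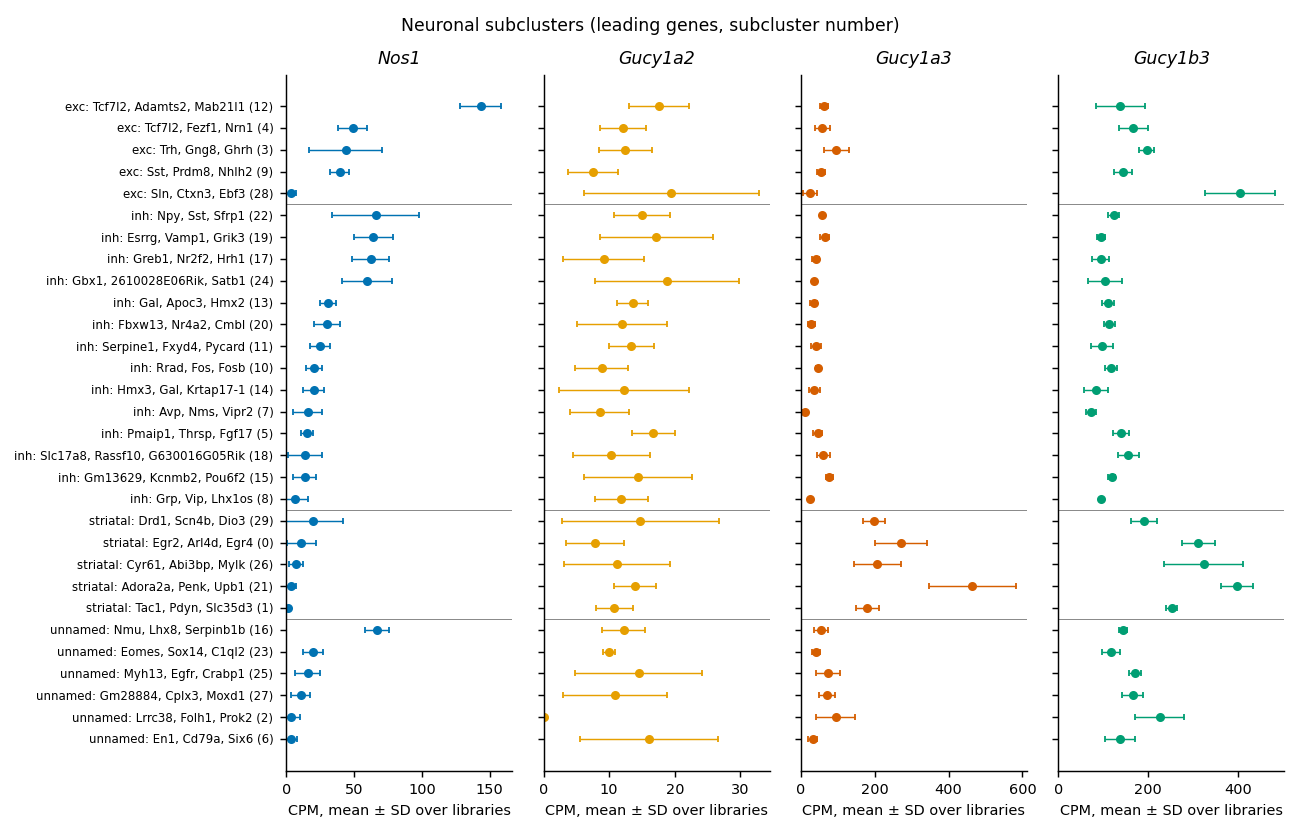
Levels of Nos1 and the 3 cyclase subunits in 30 subclusters, in CPM (mean ± SD over libraries with at least 10 cells), named by leading genes and subcluster number and grouped into excitatory (exc), inhibitory (inh), striatal projection and unnamed. Nos1 peaks in subcluster 12, Gucy1a3 in the striatal subcluster 21, and Gucy1b3 in subclusters 21 and 28. Subcluster 2 (104 cells) held too few neuronal markers and is not counted among the neurons.

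Genes that act before and after the 5 were read from lists of the pathway, first between mural and endothelial cells. The lists were chosen with earlier results of these data known, so their counts are descriptions only. Of 15 cGMP targets 5 had enough counts to be tested and those 5 were higher in mural cells, where 23.6% of all genes were. The other 10 were too low to test. Prkg1 (120 mural and 5 endothelial UMIs) and Mrvi1 (240 and 1) passed the filter on low counts through the mural class, which fixed their direction, so the count describes the tested genes and nothing is drawn from it for the list. Prkg1, the cGMP-dependent kinase, averaged 89.6 ± 12.97 CPM in mural and 3.16 ± 2.92 CPM in endothelial cells (log2 fold 4.41, SE 0.42, adjusted p = 2.06e-11, n = 5 each). Ppp1r12a, the myosin phosphatase subunit through which the kinase relaxes muscle, averaged 657.3 ± 164.4 CPM in mural and 91.1 ± 27.1 CPM in endothelial cells (2.95, SE 0.15, adjusted p = 1.68e-18). Mrvi1, the kinase substrate that curbs calcium release, averaged 156.6 ± 53.0 CPM in mural cells, with a lone UMI in endothelial cells. Of 13 phosphodiesterases that can break down cGMP 5 were tested. In mural cells 4 were higher and 1 lower, where 23.6% and 26.3% of all genes were. Pde1a, Pde2a, Pde3a and Pde5a passed the filter through the class where they are high, which fixed their direction. Mural and endothelial UMIs were 255 and 10 for Pde1a, 6 and 263 for Pde2a, and 450 and 6 for Pde3a. Pde3a (282.8 ± 103.8 CPM in mural, 3.07 ± 6.87 CPM in endothelial cells), Pde1a (173.8 ± 30.9 and 7.06 ± 4.63 CPM) and Pde5a, the target of sildenafil (177.7 ± 24.5 and 13.4 ± 7.88 CPM), were higher in mural cells, with Pde10a. Pde2a, which cGMP itself stimulates, was lower, at 5.92 ± 4.49 CPM in mural and 225.5 ± 68.3 CPM in endothelial cells (log2 fold -5.30, SE 0.31, adjusted p = 3.36e-17).

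Of 12 genes for arginine and tetrahydrobiopterin supply 6 were tested. The 3 that were called were lower in mural cells, and Ddah2 (-0.15), Spr (-0.18) and Qdpr (-0.31) did not pass, a share near the 50.0% of all genes called. The called genes passed the filter through the endothelial class. The arginine carrier Slc7a1 averaged 11.3 ± 10.9 CPM in mural and 287.8 ± 72.4 CPM in endothelial cells (log2 fold -4.59, SE 0.25, adjusted p = 9.71e-18). Gch1, the entry enzyme of cofactor synthesis, averaged 6.70 ± 6.28 and 171.6 ± 17.8 CPM (-4.09, adjusted p = 4.39e-14), and Ddah1, which clears methylated arginines that block the synthases, 5.32 ± 5.35 and 113.2 ± 34.8 CPM (-3.71, adjusted p = 6.74e-11). Of 11 synthase partners 8 were tested, 3 were higher and 4 lower. Nostrin, which moves Nos3 off the membrane, had 3 UMIs in mural cells and averaged 311.5 ± 26.6 CPM in endothelial cells. Cav1, the caveolin that holds Nos3 inactive, was lower by -0.49 (adjusted p = 0.00458) and did not pass with DESeq2 (adjusted p = 0.121), and Nosip was likewise not called by DESeq2 (adjusted p = 0.0804). None of the 9 other guanylate cyclases and natriuretic peptide receptors had enough counts.

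**Figure D4:**
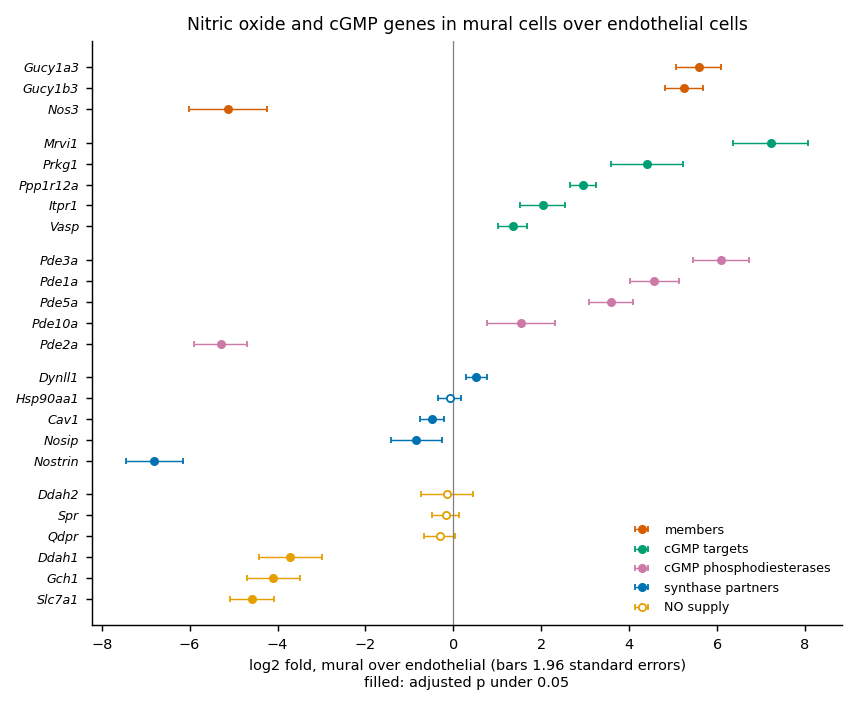
Log2 fold in mural cells over endothelial cells for tested genes of the pathway, from the edgeR fit over 5 libraries, with bars of 1.96 standard errors and filled symbols at an adjusted p under 0.05. The 2 cyclase subunits, the cGMP targets and 4 of the 5 phosphodiesterases lie right of 0, and Nos3, Nostrin, Pde2a, Slc7a1, Gch1 and Ddah1 lie left of it.

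Against neurons, where 59.8% of all genes were called, mural cells had 5 of 9 tested cGMP targets higher and 2 lower (median log2 fold 1.87 beside -0.25 over all genes), and 3 of 10 tested phosphodiesterases higher and 6 lower (median -1.58). Pde5a averaged 177.7 ± 24.5 CPM in mural cells and 0.383 ± 0.082 CPM in neurons (log2 fold 9.20, SE 0.25, adjusted p = 1.85e-283), and Mrvi1 156.6 ± 53.0 and 0.234 ± 0.026 CPM (9.88, adjusted p = 6.37e-289). Pde5a and Mrvi1 passed the filter on low counts through the mural class, which fixed their direction, and likewise Gucy2g, given below. The cation channel Hcn2, gated by cyclic nucleotides, was lower (-1.67, adjusted p = 0.00087). Pde1a, higher by 0.67 (adjusted p = 0.000123), did not pass with total UMIs as library size (0.27, adjusted p = 0.0646). Of 10 supply genes 2 were higher and 2 lower, a smaller share than among all genes, and they included Ddah2 (42.4 ± 18.9 CPM in mural cells and 5.08 ± 0.84 CPM in neurons, 3.47, adjusted p = 3.05e-28) and the citrulline-recycling enzyme Ass1 (25.3 ± 24.5 and 114.5 ± 9.63 CPM, -2.27, adjusted p = 4.24e-16). Of 9 synthase partners 2 were higher and 4 lower, including Dlg4, the synaptic scaffold that binds Nos1 (7.17 ± 5.13 and 116.3 ± 13.3 CPM, -3.45, adjusted p = 6.8e-25). Gucy2g, a membrane guanylate cyclase, averaged 47.9 ± 14.3 CPM in mural cells and 0.463 ± 0.101 CPM in neurons (7.31, SE 0.36, adjusted p = 6.22e-91), and the natriuretic peptide receptor Npr2 had 1 mural UMI and averaged 12.1 ± 0.81 CPM in neurons.

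Against neurons, where 72.9% of all genes were called, endothelial cells had 4 of 8 tested supply genes higher and 1 lower (median log2 fold 0.69 beside -0.08 over all genes), a smaller share than among all genes, and 1 of 4 phosphodiesterases higher and 3 lower (median -3.10). Gch1 averaged 183.7 ± 33.6 CPM in endothelial cells and 3.46 ± 1.06 CPM in neurons (6.16, SE 0.21, adjusted p = 1.15e-33, n = 6 each), and Slc7a1 288.7 ± 64.8 and 17.9 ± 2.70 CPM (4.40, SE 0.14, adjusted p = 5.34e-35). Pde2a was higher, at 236.7 ± 67.0 and 69.8 ± 14.4 CPM (2.15, adjusted p = 3.21e-21), and Pde1a (-3.92, adjusted p = 5.22e-18), Pde1b (-4.07, adjusted p = 1.08e-11) and Pde10a (-2.29, adjusted p = 4e-10) were lower. Among 10 synthase partners 5 were higher, led by Cav1 (8.73, adjusted p = 2.43e-42) and Nostrin (8.59, adjusted p = 4.92e-45), and 5 were lower. Gch1, Slc7a1, Cav1 and Nostrin passed the filter on low counts through the endothelial class, and Pde1a, Pde1b and Pde10a through the neurons. This fixed their direction. Of 5 cGMP targets 2 were higher, 2 lower and 1 did not pass.

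The same lists were read between excitatory and inhibitory neurons, where 10.9% of all genes were higher in excitatory neurons and 11.1% lower. Of 11 tested supply genes 7 were higher and 1 lower (median log2 fold 0.17 beside -0.004 over all genes), of 10 cGMP targets 4 were higher and 3 lower, and of 10 phosphodiesterases none was higher and 3 were lower (median -0.26). Of 9 synthase partners 3 were higher and 1 lower. The cGMP-gated channel subunits Cnga3 (7.75 ± 3.51 CPM in excitatory and 1.28 ± 0.28 CPM in inhibitory neurons, 2.34, adjusted p = 3.93e-10) and Cngb1 (9.18 ± 1.78 and 2.83 ± 0.32 CPM, 1.66, adjusted p = 8.5e-10) were higher, with the kinase Prkg2 (12.4 ± 1.80 and 6.83 ± 0.59 CPM, 0.94, adjusted p = 1.94e-07). Nos1ap, the adaptor that competes with Dlg4 for Nos1, was lower, at 36.3 ± 3.70 and 73.4 ± 6.91 CPM (-1.00, SE 0.05, adjusted p = 3.62e-15). Of the 33 pathway genes called in this comparison 9 lost the call under another scaling.

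Neurons that held at least 2 Nos1 UMIs were set against neurons of the same class and library with none, leaving Nos1 itself untested. There were 477 such inhibitory neurons in 5 libraries and 8408 with none in all 6, and 2.79% of 11073 genes were called over the 5. The Nos1 cells were deeper, at 6460.1 to 11385.9 mean UMIs per cell over libraries against 4755.9 to 8871.3, and the part of depth was not tested. Npy, neuropeptide Y, was at 3180.6, 2083.1, 2847.3, 2443.1 and 10092.7 CPM in the Nos1 cells of female replicates 1 and 2 and male replicates 1 to 3, against 93.6, 135.2, 133.1, 121.1 and 24.0 CPM in cells without (log2 fold 4.83, SE 0.18, adjusted p = 1.84e-31). The highest value rests on 10 Nos1 cells in male replicate 3. Sst, somatostatin, was at 6225.3, 4058.5, 3776.2, 4576.0 and 8699.6 CPM against 342.6, 469.1, 352.8, 443.2 and 172.7 CPM (3.80, SE 0.12, adjusted p = 9.83e-35). The groups did not overlap for either peptide, a description of these genes with no share over all genes beside it.

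A list of 14 genes known from Nos1 neurons was chosen with earlier results of these data known, so its count is a description only. Of these 12 were tested there, 7 were higher and none lower, where 2.79% of all genes were called. The median log2 fold was 0.66 beside -0.001 over all genes. In excitatory neurons none of 12 tested was higher and 2 were lower, where 1.09% of all genes were called. The 7 higher in inhibitory neurons included Tacr1, the substance P receptor (1.46, adjusted p = 5.49e-06), Crhbp, which binds corticotropin-releasing hormone (1.97, adjusted p = 1.19e-11), and Tac1 (1.07, adjusted p = 2.78e-15). Lhx6 (0.67, adjusted p = 0.0014) and Slc17a6 (0.65, adjusted p = 0.0111) were not called by DESeq2 (adjusted p = 0.0565 and 0.449). The largest rises beyond that list were Sfrp1 (2.84), the choline carrier Slc5a7 (2.81), Slc10a4 (2.14), Moxd1 (2.13), Serpinb1b (1.34) and the oxytocin receptor Oxtr (1.19). The summed level of 8 cholinergic markers was 325.1 to 587.9 CPM in the Nos1 cells of 5 libraries and 284.8 to 336.5 CPM in the cells without of all 6. That of 10 excitatory markers was 136.2 to 263.2 CPM in the Nos1 cells, with Slc17a7 at 0, and 65.4 to 171.0 CPM in the cells without, over the same libraries. The part of either cell type in the result was not tested. The largest falls were Hbb-bs (-2.68), a haemoglobin gene of red blood cells, Vip (-2.14), Prok2 (-1.84), Fam43a (-1.60) and Six6 (-1.44). Hbb-bs ran from 2.41 to 74.4 CPM over the libraries of cells without Nos1. In 1 of 5 libraries Hbb-bs went the other way, and likewise Prok2 and, among the rises, Slc5a7.

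Gucy1a3 was the subunit called in these cells. It was at 84.2, 61.1, 66.3, 65.6 and 46.4 CPM in Nos1 cells against 39.0, 45.7, 42.9, 55.9 and 37.3 CPM in cells without, higher in 5 of 5 libraries (log2 fold 0.55, SE 0.11, adjusted p = 0.000363). The call was lost without the library block (0.60, adjusted p = 0.0508), after thinning (0.79, adjusted p = 0.397) and with at least 1 Nos1 UMI as the rule (0.14, adjusted p = 0.419, the highest of its 12 alternatives). Gucy1b3 (0.16, adjusted p = 0.424), Gucy1a2 (-0.12, adjusted p = 0.921) and Nos3 (0.20, adjusted p = 0.885) did not pass. Of the pathway genes, Ass1 was higher (139.5 ± 17.7 and 110.5 ± 10.8 CPM, 0.40, adjusted p = 0.000194), as was Pde1a (217.5 ± 50.5 and 121.5 ± 15.03 CPM, 0.63, adjusted p = 4.48e-09). Of 8 synthase partners none was called by edgeR or DESeq2 and 2 had an unadjusted p under 0.05, and of 8 cGMP targets none was called by either and 0 had such a p. The Nos1 cells were unevenly spread over inhibitory subclusters: 11.5% of them came from the subcluster led by Npy and Sst, which held 5.58% of inhibitory neurons, and 4.61% from the one led by Avp, Nms and Vipr2, which held 10.6%. The part of this spread in the differences was not tested.

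Excitatory neurons with at least 2 Nos1 UMIs (400 cells in 4 libraries, against 1907 with none in 5) were tested over the 4 libraries, and 1.09% of 11233 genes were called. They held 7448.9 to 11209.7 mean UMIs per cell against 6759.6 to 9467.4. Ucn3, the stress peptide urocortin, averaged 106.1 ± 74.5 CPM in Nos1 cells and 32.6 ± 19.5 CPM in cells without (log2 fold 1.69). Other rises were Slc5a7 (2.41), Sema3c (1.35), Etv1 (1.24), Meis2 (1.19), Egr4 (1.16), Ecel1 (1.10), Gng8 (1.00), Aldh3b2 (0.97) and Ptprt (0.93). Slc5a7 was higher in 3 and Egr4 in 2 of the 4 libraries, and the others in all 4. In inhibitory Nos1 cells edgeR called Meis2 (-1.06, adjusted p = 3.48e-08) and Sema3c (-0.81, adjusted p = 0.000809) lower. Slc5a7, Ecel1, Aldh3b2 and Ptprt were called higher in both classes. The largest falls were Sln (3.33 ± 2.64 and 144.5 ± 95.6 CPM, -6.39), Ctxn3 (-5.07), Avp (-3.63), Cpne9 (-2.53) and Ebf2 (-2.36). The Avp level without Nos1 ran from 26.8 to 1355.1 CPM over libraries, and Avp was higher in the Nos1 cells of 1 library of the 4. None of the 136 cells of the subcluster led by Sln and Ctxn3 held 2 Nos1 UMIs. Npy (-1.57, adjusted p = 0.000108) and Sst (-1.24, adjusted p = 0.00357) were lower in the excitatory Nos1 cells, the opposite of the inhibitory neurons. Both calls were lost without a library, female replicate 2 for Npy and male replicate 1 for Sst. The Npy levels were low, at 10.1 CPM (46 UMIs) with Nos1 and 29.2 CPM (496 UMIs) without. Endothelial cells averaged 10.6 CPM of Npy, and the part of free RNA in these levels was not tested. Sst was not called by DESeq2 (adjusted p = 0.83). None of the 4 other members passed by edgeR or DESeq2, and 0 had an unadjusted p under 0.05: Nos3 stood at -0.08 (SE 0.34), Gucy1a2 at -0.07 (SE 0.25), Gucy1a3 at -0.02 (SE 0.11) and Gucy1b3 at -0.02 (SE 0.09).

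**Figure D5:**
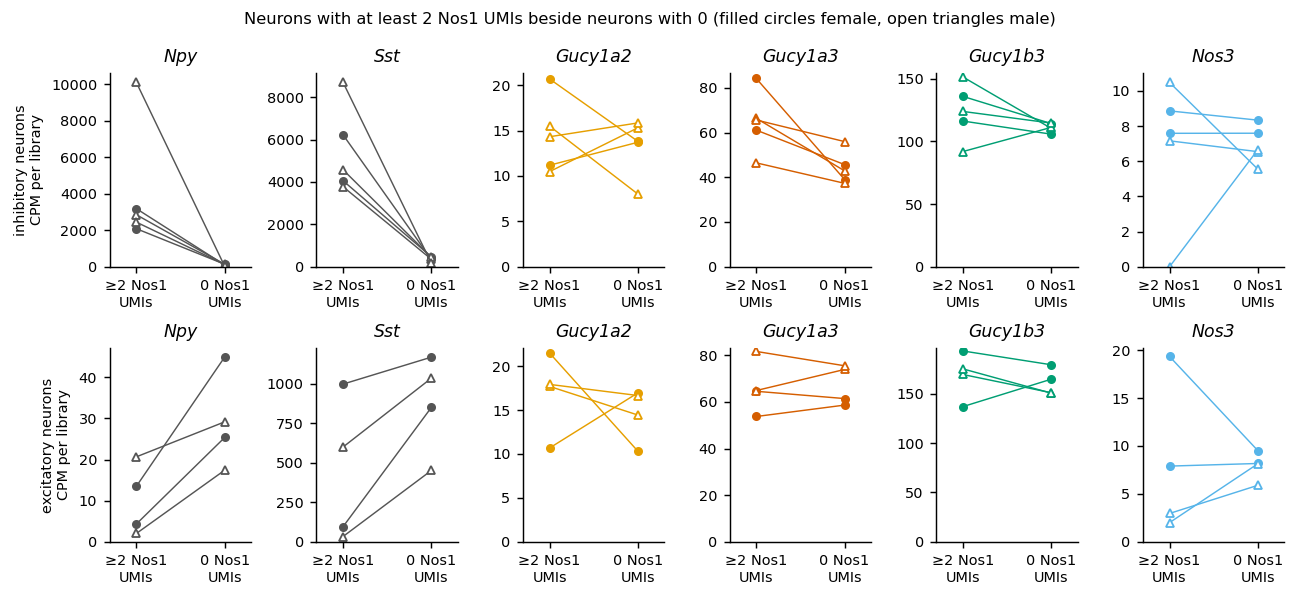
Level in CPM of 2 peptide genes and 4 members in inhibitory (top) and excitatory neurons (bottom) with at least 2 Nos1 UMIs (left of each panel) and with 0 (right). Each line joins the 2 values of a library, with filled circles for female and open triangles for male libraries. Npy and Sst are higher on the left in all 5 libraries of inhibitory neurons and lower on the left in all 4 of excitatory neurons, and Gucy1a3 is higher on the left in all 5 of the upper row.

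Genes whose levels ran most like each member were ranked by Pearson's r of log2(CPM + 1) across 44 clusters, as a description over clusters that share libraries and depth. For Gucy1a3 the closest gene of all was Gucy1b3 (r = 0.844), followed by Kcna5 (0.828), Klhl23 (0.817), Slmap (0.807) and Dgkb (0.806). For Gucy1b3 they were Ppargc1b (0.892), Azi2 (0.885), Prkag2 (0.884), Vdac1 (0.881) and Slc4a3 (0.873), and Gucy1a2 reached 0.829 with Gucy1b3. Gucy1a2 ran most like Fbxl2 (0.882), Phtf1 (0.870), Pfkp (0.868), Mfn2 (0.865) and Slc4a3 (0.865). Nos1 ran most like Disp2 (0.887), Htr7 (0.883), Kcnc2 (0.878), Rims3 (0.878) and Fam20b (0.873), and its r with Gucy1a3 was 0.252. Nos3 ran most like Mtrf1l (0.768), Rasip1 (0.754), Pomc (0.744), Bsg (0.709) and Arhgef15 (0.703).

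Female and male libraries were compared for the 5 genes in all cells, in both neuronal classes and in vascular cells. None of 19 tests was called by edgeR, where 0.0435% of all genes were called in all cells, 0.0505% in inhibitory neurons, 0.0652% in excitatory neurons, 0.0626% in mural cells and 0.0583% in endothelial cells. Of the 19, 1 was under 0.05 before adjustment, Nos3 in inhibitory neurons (edgeR adjusted p = 0.665), and none of 229 tests under the alternatives, DESeq2 among them, was called. Log2 folds of female over male ran from -0.03 to 0.35 in all cells, from -0.08 to 0.41 in inhibitory neurons and from -0.0007 to 0.59 in excitatory neurons. In mural cells, with 2 female and 3 male libraries, they ran from -0.85 to 0.41, and Nos3 in endothelial cells stood at -0.12. On simulated counts edgeR recovered 47.5% of changes of 1 log2 unit in all cells and 17.7% in mural cells. For changes of 2 log2 units these shares were 97.9% and 84.4%. A missing call therefore does not show equal levels. In all cells a lower share of a class and less RNA per cell cannot be told apart.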

How the data were processed

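Gene counts from droplet sequencing of 6 libraries were used as deposited: raw UMI counts per gene and cell in a single matrix, made by the authors with Cell Ranger 2.0.0 on the mm10 build, per the submitters' processing notes. Library and sex came from the sample labels and the barcode suffix they name. The 5 members and all pathway lists were chosen with earlier results of these data known. Pathway lists hold genes for nitric oxide supply, synthase partners, other guanylate cyclases and natriuretic peptide receptors, cGMP targets, cGMP phosphodiesterases and genes known from Nos1 neurons.

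From the counts, barcodes with under 500 genes or over 20% mitochondrial UMIs were left out (475 of 31299), and 1002 of the other 30824 (3.25%) were removed as doublets by Scrublet. Cells were clustered with scanpy 1.11.5 on Python 3.11.15 without the members and list genes (2000 variable genes, 30 components, 15 neighbours, Leiden resolution 1.0, 1.5 within neurons and 2.0 within vascular cells) and named from marker lists; a neuronal cluster had at least 8 of 12 neuronal markers in 50% of its cells. UMIs were summed per library and class with at least 10 cells and tested with edgeR 4.0.16 in R 4.3.3 (quasi-likelihood, TMM, low counts filtered with a minimum count of 10, library as block, Benjamini-Hochberg). Each class pair comes from the same libraries, so it is paired by pool. Female against male was tested without a block. Mean ± SD is over libraries. Deposited depth was 1278429 to 81162330 UMIs per library; female replicate 3, the shallowest, gives the least precise levels. Alternatives were DESeq2 1.42.0, total UMIs as library size, no filter, the other block setting, doublets kept, cells thinned to 2000 UMIs, Leiden resolution 0.6, at least 1 Nos1 UMI, set-aside vascular cells kept (chosen after seeing the data) and leaving out each library. The fits were tested on simulated counts. Named genes were all members; up to 3 called genes per list, direction and comparison with the smallest p; the 5 genes most like each member; and in Nos1 neurons the 10 largest rises and 5 largest falls among called genes of at least 20 CPM. Some genes of the pathway lists are counted in the totals but not reported here by name.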

Additional observations from a re-analysis of the deposited data

Results flagged for a closer look

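In 34 groups of 4 or more libraries, each a member in a class, 5 had a library far from the others. Chance gives about 1 in 20 for independent groups. These groups share libraries, and all neurons include the excitatory neurons, so nothing is drawn from the count. Female replicate 3 had 0 CPM of Nos1 in its 45 inhibitory neurons, below the other 5 libraries, and 14.018 CPM of Nos3 there, which is 3 UMIs and the highest of 6. It also had 0 CPM of Nos3 in its 37 striatal projection neurons, where a floor of 3 counts allows 26.1 CPM. Male replicate 3 was the lowest for Gucy1a2 in all neurons (7.738 CPM) and in excitatory neurons (6.821 CPM).

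In Nos1 cells against cells with no Nos1 UMI, Sst had a log2 fold of 3.7976 in inhibitory and -1.2396 in excitatory neurons, and Npy 4.8324 and -1.5701. Npy was low in the excitatory neurons, at 10.1 CPM with Nos1 and 29.2 CPM without. For both genes every library moved up in the inhibitory and down in the excitatory neurons. The difference between the 2 neuronal classes was not tested.

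Members stood above the mature oligodendrocyte level in the pericytes, a part of the mural class, and in classes not compared. The 18 pericytes had 841.22 CPM of Gucy1b3, 262.881 CPM of Gucy1a3 and 105.152 CPM of Gucy1a2. Oligodendrocyte precursors had 62.712 CPM of Gucy1b3, 79.9 CPM of Gucy1a3, 6.813 CPM of Gucy1a2, 3.871 CPM of Nos1 and 4.8 CPM of Nos3. Precursors also had more Snap25, 211.7 CPM against 89.8 CPM in mature oligodendrocytes. Per 1000 Snap25 UMIs they held 18.3 Nos1 and 22.7 Nos3 UMIs against 20.8 and 20.5 in mature oligodendrocytes, so neither synthase is read as above background there. Astrocytes had 25.717 CPM of Gucy1b3, 30.861 CPM of Gucy1a3 and 3.429 CPM of Gucy1a2, and newly formed oligodendrocytes 44.201 CPM of Gucy1b3 and 31.883 CPM of Gucy1a3. Snap25 was at 129.9 CPM in astrocytes and 109.4 CPM in newly formed oligodendrocytes, and per 1000 Snap25 UMIs astrocytes held 198 Gucy1b3 UMIs against 176 in mature oligodendrocytes.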

How the results depend on the processing

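Between classes 194 recomputed member values kept their direction and their side of the threshold, 4 passed it anew (Nos3, mural cells against neurons) and 7 turned, none of them called: Nos3 in excitatory over inhibitory neurons after thinning (-0.11), and Gucy1a2 there with total UMIs (0.0177), with doublets kept (0.0073), after thinning (0.17) and without a library (-0.0904 to 0.0207). In Nos1 cells 73 kept both, 3 lost the call (Gucy1a3, given above) and 14 uncalled values turned. In inhibitory neurons these were Nos3 with at least 1 Nos1 UMI (-0.0477), Gucy1b3 after thinning (-1.24) and Gucy1a2 without a library (-0.29 to 0.004). In excitatory neurons they were Nos3 (0.0322) and Gucy1a3 (0.0814) with at least 1 Nos1 UMI, Gucy1a2 (0.11) and Gucy1b3 (0.0233) with DESeq2, Gucy1b3 without the replicate block (0.0134), and values without a library for Nos3 (-0.43 to 0.11), Gucy1a2 (-0.28 to 0.43), Gucy1a3 (-0.0797 to 0.0367) and Gucy1b3 (-0.0736 to 0.1491). The alpha share difference ran from -5.54 to 0.49 points (mural minus neurons) and from -7.01 to -5.62 (excitatory minus inhibitory) without a library, and the second was -3.51 after thinning. Counts of called genes moved as follows, and the cause was not tested unless fewer or more genes were tested. Mural against endothelial cells: 3415 with no filter. Endothelial cells against neurons: 8846 with no filter, 4767 to 7704 without a library, the highest without female replicate 3. Excitatory against inhibitory neurons: 1721 with DESeq2, 918 with no replicate block, 1277 after thinning, 1970 to 3129 without a library. Nos1 cells, inhibitory: 109 with DESeq2, 65 with no replicate block. Nos1 cells, excitatory: 32 with DESeq2, 197 with no filter and with at least 1 Nos1 UMI, 17 with no replicate block, 342 after thinning, 62 to 131 without a library. By sex, the labels do not say that replicate numbers pair the libraries. Same-number correlations were 0.377, 0.081 and 0.289 over 16088 genes, and those of different numbers ran from -0.352 to 0.296. A pairing by number can be neither taken nor left out from these values. The replicate block gave 1168 calls in inhibitory neurons, 977 in excitatory neurons and 57 in mural cells, none a member. Sex, no filter: 60 in inhibitory, 62 in excitatory, 27 in mural and 20 in endothelial cells. Sex, other: 29 in inhibitory neurons after thinning and 14 in mural cells with set-aside cells kept. Sex without a library: 4 to 7 in all cells, 6 to 15 in inhibitory, 5 to 12 in excitatory, 2 to 32 in mural (32 without female replicate 1) and 1 to 9 in endothelial cells. Pericytes against smooth muscle and the endothelial alpha share were not run for lack of cells. Depth limits the 3 Nos3 UMIs in mural cells and the low endothelial counts of Nos1 and Gucy1a2.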
